A study of Homo sapiens with 6 samples.

Results

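MEST, PEG10, PEG3, IMPACT, SNRPN, NDN, PLAGL1 and GRB10 are genes known for genomic imprinting, and COPG2 and SGCE are the genes beside MEST and PEG10 on chromosome 7. They were found by gene symbol in a table of RNA-seq counts from HMEC-1 cells, and 9 of the 10 had a row among its 18544 genes. PEG3 was not listed; no listed gene had under 60 counts summed over the 6 libraries, so a gene without a row has no value here. The 10 symbols were chosen by their place among imprinted genes and with the differences of this same comparison known, MEST and PEG10 having stood out in it. Differences of these genes between the groups are therefore given as a description: where the call of the fit over all genes is given for them, nothing is read from it.

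HMEC-1 is a line of human microvascular endothelial cells from skin that was immortalised, here grown in MCDB131 medium with 5.5 mM glucose. The group called Set7KD (n = 3) had received a lentivirus carrying an shRNA that targets Set7, the lysine methyltransferase encoded by SETD7, and the group called NTC (n = 3) a lentivirus carrying a non-targeting shRNA. All 6 libraries therefore share the cell line, the medium and a viral shRNA construct. The sources used here do not give how many hairpins were used against Set7. The comparison asks how transcript levels differ when Set7 is depleted.

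In genomic imprinting a gene is expressed mainly from the copy inherited from 1 parent. The copies are told apart by DNA methylation placed in the egg or the sperm and kept in the embryo by proteins such as ZFP57 and ZNF445. MEST, PEG10, PEG3, SNRPN, NDN and PLAGL1 are known for expression from the paternal copy, and SGCE shares this with PEG10, which starts beside it on the opposite strand. COPG2, GRB10 and IMPACT are less uniform: their imprinting depends on tissue, isoform or species. Poly-A counts add both parental copies together, so none of the values below says which copy a transcript came from.

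MEST encodes a membrane protein of the alpha/beta hydrolase fold, and COPG2 a subunit of the COPI vesicle coat. PEG10 descends from the Gag and Pol genes of a retrotransposon, and SGCE encodes epsilon-sarcoglycan. SNRPN encodes a protein of the spliceosomal small nuclear ribonucleoproteins, and NDN encodes necdin, a MAGE family protein. PLAGL1 is a zinc finger transcription factor, GRB10 an adaptor that binds the insulin receptor, and IMPACT an inhibitor of the kinase GCN2.

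Promoter sequences of 7 of the 10 genes, in 22 windows, were matched in RefSeq on GRCh38.p14; PEG10, SGCE and PEG3 were not matched. Each window runs from 250 bases before to 50 bases after an annotated start. Shown are windows of MEST and its neighbour COPG2, and of SNRPN and NDN, because the genes of each pair lie in the same chromosome region and differed in opposite directions. COPG2 and NDN have 1 window each, and for MEST and SNRPN, which have several, the window with the most matches to the hexamer described next was picked. They are the MEST window at chr7:130491835-130492134 on the plus strand, COPG2 at chr7:130668699-130668998 on the minus strand, SNRPN at chr15:24954737-24955036 on the plus strand and NDN at chr15:23687256-23687555 on the minus strand. Capitals mark the hexamer TGCCGC on either strand, the sequence that ZFP57 recognises when it is methylated; overlapping matches run together.
MEST: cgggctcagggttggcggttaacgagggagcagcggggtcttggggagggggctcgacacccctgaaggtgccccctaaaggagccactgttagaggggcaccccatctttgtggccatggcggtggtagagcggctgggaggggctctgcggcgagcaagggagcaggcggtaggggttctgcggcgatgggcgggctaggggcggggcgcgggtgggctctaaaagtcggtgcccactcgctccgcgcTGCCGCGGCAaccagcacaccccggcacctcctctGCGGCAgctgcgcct
COPG2: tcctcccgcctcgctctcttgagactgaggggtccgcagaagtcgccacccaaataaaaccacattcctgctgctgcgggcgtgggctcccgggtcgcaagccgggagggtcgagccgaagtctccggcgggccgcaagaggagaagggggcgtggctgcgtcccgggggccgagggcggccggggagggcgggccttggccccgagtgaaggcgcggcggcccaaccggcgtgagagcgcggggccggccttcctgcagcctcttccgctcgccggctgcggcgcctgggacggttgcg
SNRPN: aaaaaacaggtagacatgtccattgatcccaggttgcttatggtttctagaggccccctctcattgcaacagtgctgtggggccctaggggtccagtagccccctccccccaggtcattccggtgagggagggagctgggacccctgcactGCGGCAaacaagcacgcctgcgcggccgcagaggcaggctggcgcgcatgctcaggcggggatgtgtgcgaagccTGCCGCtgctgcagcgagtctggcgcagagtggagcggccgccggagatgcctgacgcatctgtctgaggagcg
NDN: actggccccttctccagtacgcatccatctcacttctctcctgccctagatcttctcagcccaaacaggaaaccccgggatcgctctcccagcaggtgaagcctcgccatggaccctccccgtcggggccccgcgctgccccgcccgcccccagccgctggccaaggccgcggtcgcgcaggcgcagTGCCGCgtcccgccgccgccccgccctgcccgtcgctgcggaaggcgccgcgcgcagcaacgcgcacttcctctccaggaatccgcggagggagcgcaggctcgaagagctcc
The MEST window shown held the hexamer 3 times and that of SNRPN 2 times, the most of any window of each gene by the way they were picked. The windows of MEST held from 0 to 3 matches and those of SNRPN from 0 to 2, and the only window of NDN held 1 and that of COPG2 had no match. Of all 22 windows 9 held it: 4 of 5 for MEST, 2 of 4 for SNRPN, 1 of 1 for NDN, 1 of 5 for PLAGL1 and 1 of 5 for GRB10. Among all 35116 promoter windows of the same length 16.7% held it. Some windows of the same gene overlap, so these counts are not separate sites. CpG numbered 13 to 25 in the windows of MEST, 2 to 18 in those of SNRPN, 37 in COPG2 and 35 in NDN, against a median of 14 over all windows; the MEST and SNRPN windows shown were the highest of their gene in CpG too. A match is a string of letters and no measured binding, and methylation was not measured here.

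Depth ran from 16385878 to 16953331 gene counts per library, so that 1 count was worth 0.0585 to 0.0618 CPM, a count scaled to a common library size with TMM factors. SETD7 went from 178 ± 2.18 CPM in NTC to 32.8 ± 9.59 CPM in Set7KD (mean ± SD, n = 3 each), the direction the labels give. By an edgeR adjusted p under 0.05 over 18482 genes, 36.2% of all genes were called, 17.6% higher and 18.6% lower in Set7KD. For 47.4% of all genes the CPM ranges of both groups were fully apart. Of the 8 of 10 endothelial markers with values, 2 were higher and 2 lower, and their summed level was 449 to 570 CPM in NTC against 357 to 394 CPM in Set7KD. CDH5, at 206 CPM in NTC against 119 CPM in Set7KD, and TIE1, at 144 against 87.3 CPM, were lower. TEK, at 45.1 against 58.8 CPM, and KDR, at 17.3 against 27.8 CPM, were higher. ERG, VWF, EMCN and ESAM were not called, with log2 fold changes of -0.39, 0.06, 0.25 and 0.27. All of these were named after their values were seen. PECAM1 and CLDN5, which define endothelium, had no row. Markers of fibroblasts, 3 of 6 with values, summed to 15.1 to 16.98 CPM in NTC against 81.3 to 99.2 CPM in Set7KD, with 2 higher; DCN, FAP and DPT had no row. COL3A1, named after its values were seen, made up most of that sum, at 12.8 CPM in NTC against 85.2 CPM in Set7KD, while PDGFRA went from 1.63 to 2.92 CPM and LUM, not called, from 1.56 to 1.98 CPM. Smooth muscle markers, 5 of 6 with values, gave 166 to 198 CPM against 198 to 245 CPM, with 1 higher. Most of that sum was CSPG4, which was not called, at 130 CPM in NTC against 160 CPM in Set7KD. The called gene, CNN1, went from 0.98 to 9.16 CPM, and both were named after their values were seen. The part of these differences in the levels below was not tested, and in bulk RNA a smaller share of some cells and less RNA per cell cannot be told apart.

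All 9 genes with a row passed the filter on low counts. MEST, PEG10 and NDN were called higher, COPG2 and SNRPN lower, and SGCE, IMPACT, PLAGL1 and GRB10 were not called. That is 5 of 9 against the 36.2% of all genes; since the same contrast helped to choose the genes, nothing is read from the share. For 6 of the 9 the groups were fully apart, against 47.4% of all genes, and nothing is read from that either. The median log2 fold change of the 9 was 0.07, and over all genes it was -0.01.

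MEST (ENSG00000106484.8) stood at 97.3, 102 and 95.6 CPM in the NTC libraries 1 to 3 and at 229.7, 210.1 and 226 CPM in Set7KD 1 to 3. All Set7KD libraries lay at more than double the level of any NTC library. The means were 98.3 ± 3.38 CPM and 222 ± 10.3 CPM, a log2 fold change of 1.17 ± 0.06 (SE), or 2.26-fold. In raw reads this was 1634 to 1696 counts in NTC and 3399 to 3796 in Set7KD. Of 13093 genes averaging 5 CPM or more over the groups, 48 had a higher log2 fold change.

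COPG2 (ENSG00000158623.10) moved the other way. It stood at 27.7, 25.8 and 29.4 CPM in NTC and at 19.97, 23.4 and 20.3 CPM in Set7KD. The highest Set7KD library, replicate 2, stayed under the lowest NTC library, also replicate 2. The log2 fold change was -0.38 ± 0.09 (SE), and 1454 of the 13093 genes had a lower one.

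PEG10 (ENSG00000242265.1) stood at 118, 119 and 133 CPM in NTC and at 256, 252 and 268 CPM in Set7KD. As for MEST, the groups were far apart next to the spread within them. The means were 123 ± 8.19 CPM and 259 ± 8.63 CPM, a log2 fold change of 1.07 ± 0.06 (SE), or 2.10-fold. The counts behind these values were 1976 to 2270 in NTC and 4070 to 4380 in Set7KD. Of the 13093 genes 74 had a higher log2 fold change.

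SGCE (ENSG00000127990.11), which starts beside PEG10, stood at 22.6, 21.5 and 20.7 CPM in NTC and at 22.3, 24.2 and 21.8 CPM in Set7KD. The groups overlapped. The log2 fold change was 0.07 ± 0.08 (SE).

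**Figure D1:**
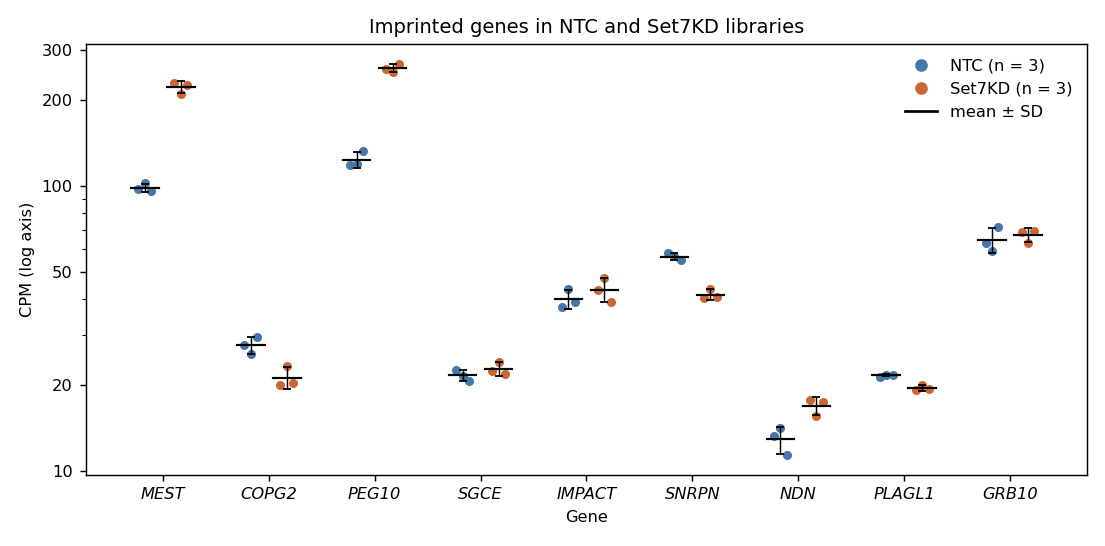
CPM (log axis) of the 9 imprinted genes and neighbours that had a row, by gene, with 1 point per library and the mean ± SD of each group (n = 3). MEST and PEG10 are far higher in Set7KD, COPG2 and SNRPN are lower, NDN is higher, PLAGL1 is slightly lower, and the groups of SGCE, IMPACT and GRB10 overlap.

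Each pair was also compared within libraries, as the log2 ratio of CPM plus 0.5, which takes out any scaling that the 2 genes share. MEST exceeded COPG2 by 1.80, 1.97 and 1.68 in NTC and by 3.49, 3.14 and 3.44 in Set7KD. The ratio therefore went from 3.52 to 10.3 as a mean over libraries, and no NTC library came near a Set7KD library. The difference of the log2 ratios was 1.54, with an SD of 0.14 within NTC and 0.19 within Set7KD (n = 3 each).

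PEG10 exceeded SGCE by 2.36, 2.44 and 2.65 in NTC and by 3.49, 3.35 and 3.59 in Set7KD. The ratio went from 5.60 to 11.1, a difference in log2 ratio of 0.99 with SDs of 0.15 and 0.12. Both ratios were thus higher in Set7KD, but the neighbours differed: COPG2 was itself lower, and SGCE stayed within its spread. MEST relative to PEG10 overlapped between the groups, with a ratio of 0.80 in NTC and 0.86 in Set7KD.

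**Figure D2:**
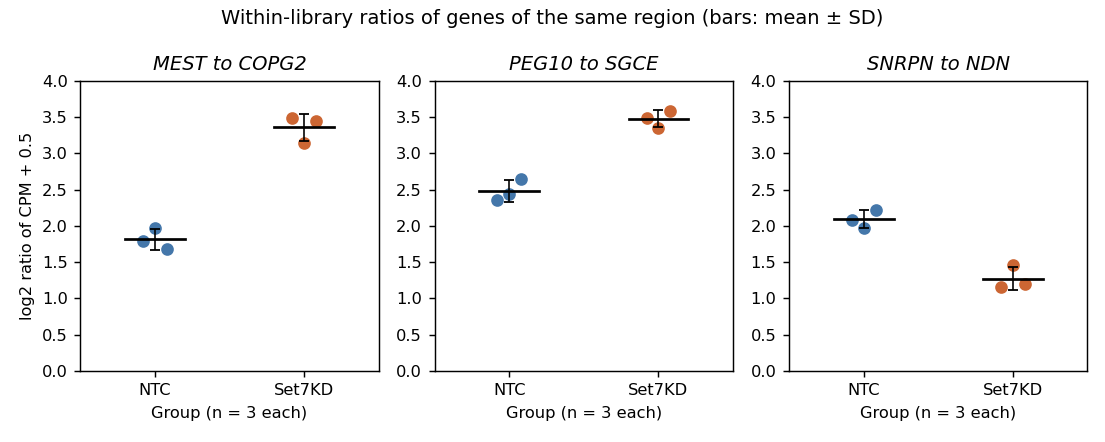
Log2 ratio of CPM plus 0.5 between 2 genes of the same region, within each library, by group (n = 3 each), with mean ± SD. MEST to COPG2 is higher by 1.54 and PEG10 to SGCE by 0.99 in Set7KD, and SNRPN to NDN is lower by 0.82.

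The neighbours overlap in the annotation. In GENCODE 29, MEST and COPG2 lie on opposite strands and share 228 exon bases, 4.76% of the exon bases of MEST and 5.51% of those of COPG2. PEG10 and SGCE lie on opposite strands with outermost starts 247 bases apart and share 219 exon bases. The sources used here do not say whether the counting used strand, and reads within these stretches cannot be told apart between the genes. A pseudogene of MEST, MESTP1, also had a row, at means of 6.32 CPM for NTC and 15.5 CPM for Set7KD. Its ratio to MEST was 0.069 in NTC and 0.072 in Set7KD, with overlapping groups, and reads of near-identical copies can be assigned to either, so its level is uncertain.

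SNRPN (ENSG00000128739.16) stood at 58.1, 56.6 and 54.8 CPM in NTC and at 40.3, 43.6 and 40.6 CPM in Set7KD. It was lower in every Set7KD library than in any NTC library. The log2 fold change was -0.44 ± 0.06 (SE), and 1143 of the 13093 genes had a lower one. SNURF, which is made from the same transcript as SNRPN, followed it at a ratio of 1.02 in NTC and 1.04 in Set7KD. The annotated exons of SNURF and SNRPN share 541 bases on the same strand, so the rows count partly the same reads and are no separate evidence.

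NDN (ENSG00000182636.4), in the same region of chromosome 15, stood at 13.3, 14.1 and 11.4 CPM in NTC and at 17.7, 15.6 and 17.5 CPM in Set7KD. The lowest Set7KD library, replicate 2, lay above the highest NTC library. The log2 fold change was 0.39 ± 0.10 (SE). SNRPN and NDN thus differed in opposite directions, and the log2 ratio of SNRPN to NDN went from 2.09 ± 0.13 to 1.27 ± 0.16 (mean ± SD, n = 3 each).

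PLAGL1 (ENSG00000118495.13) stood at 21.4, 21.7 and 21.8 CPM in NTC and at 19.2, 20.03 and 19.4 CPM in Set7KD. The groups did not overlap, but the difference was small, with a log2 fold change of -0.15 ± 0.08 (SE), and the gene was not called. The NTC libraries of PLAGL1 were very close to each other, with an SD of 0.20 CPM.

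IMPACT (ENSG00000154059.5) stood at 37.4, 43.4 and 39.3 CPM in NTC and at 43.0, 47.5 and 39.1 CPM in Set7KD. Within both groups replicate 2 was the highest. The log2 fold change was 0.11 ± 0.08 (SE).

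GRB10 (ENSG00000106070.13) stood at 63.2, 59.0 and 71.6 CPM in NTC and at 68.9, 62.9 and 69.6 CPM in Set7KD. Here replicate 2 was the lowest and replicate 3 the highest in both groups. The log2 fold change was 0.06 ± 0.07 (SE), and it was -0.0054 without NTC replicate 2.

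To rank the genes by level, CPM was divided by kilobases of exon. The ratios between genes above are of CPM without length and give no such order. MEST to PEG10, for example, was 0.80 in NTC by CPM, while per kb MEST stood above PEG10. In NTC, MEST stood at 20.5 ± 0.71 CPM per kb and PEG10 at 18.4 ± 1.22 CPM per kb (mean ± SD, n = 3), and their ranges came close, 19.9 to 21.3 against 17.7 to 19.9. SNRPN followed at 16.5 ± 0.48 CPM per kb and IMPACT at 8.14 ± 0.62. NDN at 6.68, COPG2 at 6.67 and GRB10 at 6.59 CPM per kb did not differ beyond their spread by this length, that of all exons. PLAGL1 at 2.48 and SGCE at 1.03 CPM per kb were the lowest. In Set7KD, MEST was at 46.3 ± 2.15 and PEG10 at 38.7 ± 1.29 CPM per kb, and MEST and PEG10 were again the highest. The order depends on the length used. An alternative chosen after seeing the data took the longest transcript in place of all exons. With it, SNRPN took the second place from PEG10 in NTC. MEST was then at 39.3 ± 1.35 and PEG10 at 18.6 ± 1.24 CPM per kb, so the 2 were close only by the length of all exons. GRB10 passed IMPACT, which was at 10.6 CPM per kb, and PLAGL1 and SGCE were level at 3.44 and 3.45 CPM per kb. NDN, COPG2 and GRB10 were then no longer level, at 6.68 ± 0.73, 8.81 ± 0.58 and 11.9 ± 1.18 CPM per kb in NTC (mean ± SD).

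The genes around MEST did not share its difference as a block. Of 12 neighbours listed, 6 had values; CPA4 was called higher and UBE2H lower, 2 of 6 against 36.2% of all genes. CPA4, a carboxypeptidase gene also known for imprinting in some tissues, stood at 138, 102 and 178 CPM in NTC and at 398, 343 and 376 CPM in Set7KD. Its log2 fold change was 1.42 ± 0.23 (SE) (edgeR adjusted p = 0.0103), and its libraries were more spread than those of MEST. UBE2H, a ubiquitin-conjugating enzyme gene, had a log2 fold change of -0.18 (edgeR adjusted p = 0.0183). Its call was lost without Set7KD replicate 3 (adjusted p = 0.109), Set7KD replicate 1 (0.062), NTC replicate 1 (0.066) or NTC replicate 2 (0.064). CEP41, the nearest gene with values on the side of MEST away from COPG2, had a log2 fold change of -0.12, TMEM209 of -0.11, ZC3HC1 of -0.02 and KLHDC10 of 0.04, and none of the 4 was called. CPA4 and MEST are thus separated by CEP41, which was not called.

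Around PEG10, 10 of 18 listed neighbours had values, and 6 were called higher and none lower, with a median log2 fold change of 0.30. Of all genes 36.2% were called, 17.6% higher, and with 10 neighbours nothing particular to the region is read from the count. COL1A2, which encodes a chain of type I collagen, stood at 155, 144 and 149 CPM in NTC and at 809, 621 and 768 CPM in Set7KD. Its log2 fold change was 2.30 ± 0.09 (SE) (edgeR adjusted p = 7.36e-08), larger than that of PEG10, and its ratio to PEG10 went from 1.21 to 2.81. Between COL1A2 and PEG10 lie CASD1 and SGCE, and CASD1, with a log2 fold change of 0.15, was not called either.

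Farther out, TFPI2, a serine protease inhibitor gene known for imprinting in placenta, had a log2 fold change of 1.01 (edgeR adjusted p = 3.79e-05) and rose from 11.5 ± 2.56 to 23.1 ± 1.10 CPM. GNGT1, a G protein subunit gene, had a log2 fold change of 1.59 (edgeR adjusted p = 0.000612) at low levels, from 0.63 to 1.92 CPM. On the other side of PEG10, PON2, a paraoxonase gene, had a log2 fold change of 0.43 (edgeR adjusted p = 3.48e-05). PDK4, a kinase gene that acts on pyruvate dehydrogenase, rose from 7.25 ± 2.37 to 28.9 ± 6.99 CPM, a log2 fold change of 1.995 (edgeR adjusted p = 0.00448). SHFM1, a gene for a small proteasome subunit, was the weakest call, with a log2 fold change of 0.17 (edgeR adjusted p = 0.0355). Its adjusted p was above 0.05 in DESeq2 (0.072) and when any 1 of 5 libraries was left out, from 0.063 without NTC replicate 2 to 0.11 without Set7KD replicate 2, with 0.067 without NTC replicate 1, 0.0999 without NTC replicate 3 and 0.094 without Set7KD replicate 1. GNG11 at 0.01, BET1 at 0.12 and SLC25A13 at 0.16 on the log2 scale were not called. The called genes were therefore interleaved with uncalled ones on the side of COL1A2. On the side of PON2 this rested on SHFM1 alone, the weak call that lies beyond the uncalled SLC25A13. All 10 neighbours had a positive log2 fold change, the smallest being that of GNG11.

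**Figure D3:**
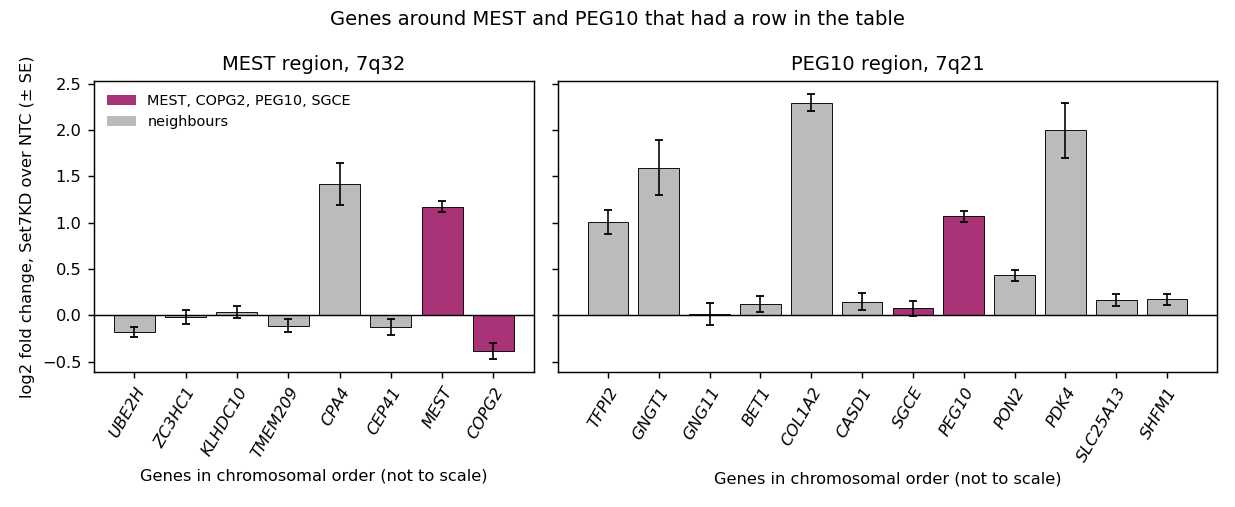
Log2 fold change of Set7KD over NTC (bars, with the standard error as whiskers) for each gene with a row, in chromosomal order and not to scale, around MEST and around PEG10. MEST stands between CEP41, at -0.12, and COPG2, at -0.38, and PEG10 between SGCE, at 0.07, and PON2, at 0.43.

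Of the 17 neighbours listed around SNRPN and NDN, 9 had values, 1 was higher and 2 were lower, 3 of 9 against 36.2% of all genes. The 2 were SNURF, at -0.43, and SNHG14, the long transcript that runs on from SNRPN, at -0.36 (edgeR adjusted p = 0.0015). TUBGCP5, a gene of the gamma-tubulin complex that is not known for imprinting, was higher at 0.25 (edgeR adjusted p = 0.0054). SNHG14 and SNRPN share 141 exon bases on the same strand, so the SNHG14 row may count some of the same reads.

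Around IMPACT, 7 of 8 listed neighbours had values, and 1 was called higher and 1 lower, against 36.2% of all genes called. OSBPL1A, an oxysterol-binding protein gene, rose from 10.02 ± 0.25 to 17.02 ± 1.76 CPM, a log2 fold change of 0.76 (edgeR adjusted p = 5.1e-05). ANKRD29 was called lower at -0.47 (edgeR adjusted p = 0.0396), but not in DESeq2 (0.149), nor without NTC replicate 1 (0.125), NTC replicate 2 (0.068), NTC replicate 3 (0.052), Set7KD replicate 1 (0.128) or Set7KD replicate 3 (0.139). IMPACT itself was not called.

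Around PLAGL1, 6 of 8 had values, and 2 were called higher and 1 lower, against 36.2% of all genes called. LTV1, a ribosome assembly factor gene, rose by 0.48 and FUCA2, a fucosidase gene, by 0.32 on the log2 scale (edgeR adjusted p = 0.000106 and 0.00016). PHACTR2 was lower at -0.20 (edgeR adjusted p = 0.023), which was lost without Set7KD replicate 3 (0.114), NTC replicate 1 (0.071) or NTC replicate 2 (0.116). Of 12 genes listed around PEG3, 6 had values, and edgeR called 0; 1 of them, the zinc finger gene ZNF470 at -0.34, had an unadjusted p under 0.05, DESeq2 and limma-voom also called 0, and 1 was called without Set7KD replicate 3. FIGNL1, the 1 of 7 around GRB10 that had values, was at -0.05 and was not called by any of these tools. Over all regions, 16 of 45 neighbours with values were called, 11 higher and 5 lower, against 36.2% of all genes.

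The other imprinted genes gave a similar count. Of 44 listed, 29 had values, and 4 were called higher and 6 lower, 34.5% against 36.2% of all genes, with a median log2 fold change of -0.06. By smallest p they were TRAPPC9, BLCAP, L3MBTL1 and KCNQ1OT1. TRAPPC9, a gene of a vesicle tethering complex, fell from 29.95 ± 0.99 to 20.4 ± 1.02 CPM, a log2 fold change of -0.55 (edgeR adjusted p = 6.41e-05). L3MBTL1, which encodes a chromatin reader of methylated lysine, fell by 0.55 on the log2 scale (edgeR adjusted p = 0.000868).

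BLCAP rose from 57.3 ± 4.45 to 75.2 ± 1.29 CPM, a log2 fold change of 0.39 (edgeR adjusted p = 0.000226). KCNQ1OT1, the noncoding transcript of the KCNQ1 imprinted region, rose from 5.94 ± 0.90 to 9.90 ± 1.74 CPM, a log2 fold change of 0.74 (edgeR adjusted p = 0.0013). The other calls, named after their values were seen, were GPR1 at 1.11 and HM13 at 0.26, and SLC22A18 at -0.78, ZDBF2 at -0.63, ZNF331 at -0.25 and CDKN1C at -0.997 on the log2 scale. CDKN1C was at only 0.98 CPM in NTC against 0.49 CPM in Set7KD, and it lost its call in DESeq2 (adjusted p = 0.1501) and without Set7KD replicate 3 (0.141), NTC replicate 1 (0.128) or NTC replicate 2 (0.0704). ZNF331 lost it without Set7KD replicate 1 (0.0524).

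Also named after their values were seen, H19 had a log2 fold change of -0.14, MEG3 of 0.11 and GNAS of 0.01, and these 3 long-studied imprinted genes were not called. Of the 29 others, GPR1 alone had a log2 fold change above that of PEG10, and it was at 1.04 CPM in NTC, far under PEG10.

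**Figure D4:**
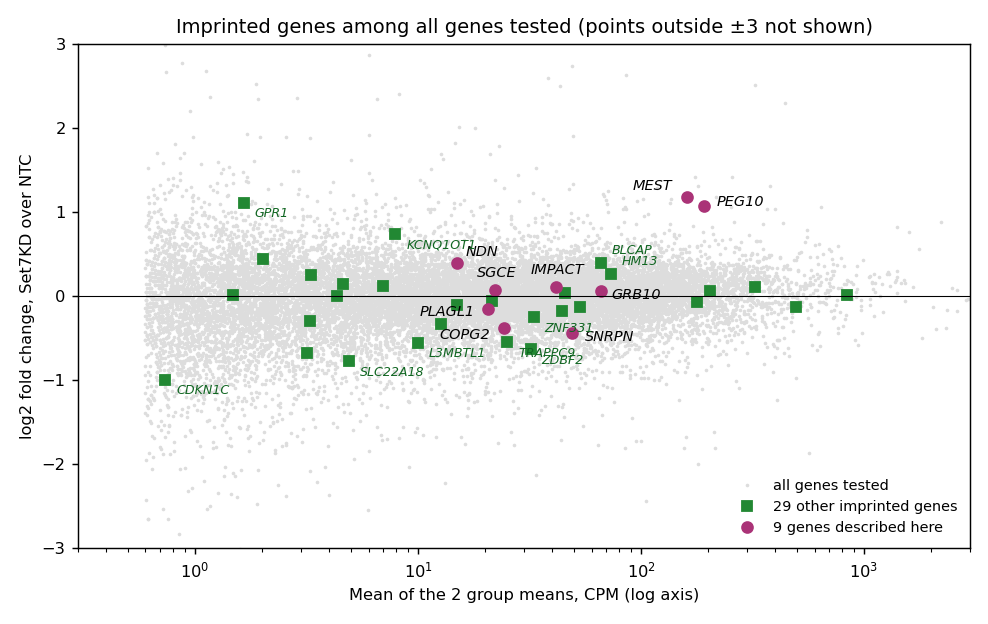
Log2 fold change of Set7KD over NTC against the mean level in CPM (log axis) for all genes tested (grey points), the 29 other imprinted genes (green squares) and the 9 genes described here (purple circles). MEST and PEG10, at 1.17 and 1.07, lie above all of the 29 green squares except GPR1, which is at 1.11 between MEST and PEG10. CPA4, known for imprinting in some tissues but counted with the neighbours of MEST, is higher, at 1.42, among the grey points.

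Factors that place or keep imprints were also counted. Of 26 listed, 20 had values, and 1 was higher and 4 were lower, 25.0% against 36.2% of all genes. DNMT3B, a de novo DNA methyltransferase, rose from 17.4 ± 2.31 to 27.6 ± 1.38 CPM, a log2 fold change of 0.66 (edgeR adjusted p = 8.37e-05). YY1, a zinc finger protein that binds within several imprinted regions, fell from 197 ± 1.52 to 150.2 ± 2.59 CPM, a log2 fold change of -0.39 (edgeR adjusted p = 2.3e-05).

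SETDB1, a histone H3 lysine 9 methyltransferase, fell by 0.29 on the log2 scale (edgeR adjusted p = 0.00164). ZNF445, which keeps imprints after fertilisation, was lower at -0.19 (edgeR adjusted p = 0.013), lost without NTC replicate 1 (0.0505) or Set7KD replicate 1 (0.0649). EHMT2, the fifth call and named after its value was seen, was at -0.21 (edgeR adjusted p = 0.0146), lost without Set7KD replicate 3 (0.0526), NTC replicate 1 (0.0818) or NTC replicate 2 (0.0554). Without NTC replicate 1, 3 of the 20 were called, 1 higher and 2 lower. Over all genes that setting called 4987 of 18525, against 6690 of 18482 in the main fit. ZFP57, whose hexamer is marked in the promoter windows, had no row.

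Finally each gene was set beside the proteins it works with or resembles. The COPI coat covers vesicles that run from the Golgi to the endoplasmic reticulum. Of 9 genes, the other coat subunits and the GTPase ARF1, 6 were called higher, none lower and 3 were not called, with a median log2 fold change of 0.35, against 36.2% of all genes called and 17.6% called higher. COPZ2 rose from 9.21 ± 0.62 to 19.9 ± 1.89 CPM, a log2 fold change of 1.11 (edgeR adjusted p = 1.61e-06). COPZ1 rose by 0.39, COPB2 by 0.37 and COPB1 by 0.35 on the log2 scale (edgeR adjusted p = 3.8e-05, 4.21e-05 and 6.83e-05). COPG1, the other gamma subunit gene and named after its value was seen, was at -0.0036 and was not called, and neither was COPE, at -0.13, nor ARF1, at 0.11, both also named after their values were seen.

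Of the spliceosomal genes beside SNRPN, all 12 had values, 5 were higher and 1 was lower, against 36.2% of all genes called. SNRPC rose by 0.44, SNRPD1 by 0.34 and SNRPF by 0.33 on the log2 scale (edgeR adjusted p = 4.83e-05, 0.000689 and 0.00089). SNRPB, whose protein is closely similar to that of SNRPN and which was named after its value was seen, had a log2 fold change of 0.13 and was not called. The log2 ratio of SNRPN to SNRPB was lower by 0.57 in Set7KD, with groups that did not overlap.

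Among genes of the sarcoglycan and dystrophin complex, which links the cytoskeleton to the matrix and to which SGCE belongs, 9 of 14 had values, with 5 higher and 2 lower, against 36.2% of all genes called. DMD rose by 0.65 and DAG1 by 0.33 on the log2 scale, while SSPN fell by 1.30 and SNTB1 by 0.90 (edgeR adjusted p = 3.89e-06, 0.0004, 0.000182 and 0.00117). SGCE lay between them.

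Of the other Gag-derived genes beside PEG10, 9 of 14 had values, with 1 higher and 2 lower, against 36.2% of all genes called, and a median log2 fold change of 0.00. ARC fell from 1.32 ± 0.23 to 0.20 ± 0.03 CPM, a log2 fold change of -2.65 (edgeR adjusted p = 5.3e-05), and FAM127C rose by 0.44 (edgeR adjusted p = 0.00692). PNMA2 was lower at -0.26 (edgeR adjusted p = 0.0259), lost without NTC replicate 3 (0.116), Set7KD replicate 1 (0.098) or Set7KD replicate 3 (0.113). FAM127C, at 0.44, was the highest of the 9, against 1.07 for PEG10.

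Of the MAGE genes beside NDN, 6 of 8 had values, and 1, MAGED1, was called, against 36.2% of all genes; it was higher by 0.29 on the log2 scale (edgeR adjusted p = 0.00259). In the GCN2 pathway, which IMPACT restrains, 4 of 6 genes listed were higher and 1 lower, against 36.2% of all genes called. EIF2AK4, the gene of GCN2 itself and named after its value was seen, was at 0.046 on the log2 scale and was not called. EIF2S1, the GCN2 substrate, rose by 0.42, and ATF4, the transcription factor translated when that pathway is active, fell by 0.62 on the log2 scale (edgeR adjusted p = 1.37e-05 and 8.41e-05).

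Of the insulin and IGF receptor genes beside GRB10, 11 of 12 had values, with 2 higher and 5 lower, against 36.2% of all genes called. INSR, the insulin receptor, fell from 25.8 ± 2.28 to 13.8 ± 2.52 CPM and PIK3R1, a regulatory subunit of phosphoinositide 3-kinase, rose from 45.5 ± 5.25 to 70.6 ± 5.35 CPM (edgeR adjusted p = 4.38e-05 and 5.15e-05). Of the PLAG zinc finger genes beside PLAGL1, PLAG1 fell by 1.44 at a low level of 3.23 CPM in NTC, and PLAGL2 rose by 0.36 on the log2 scale (edgeR adjusted p = 0.000305 and 0.0019). Over all families, 25 of 64 genes with values were higher and 12 lower, 57.8% called against 36.2% of all genes. With a filter of 50 counts, which leaves out genes of low counts, 6204 of 14337 genes were called over the whole table. The families were chosen with earlier results of these data known, so nothing is read from their share.

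**Figure D5:**
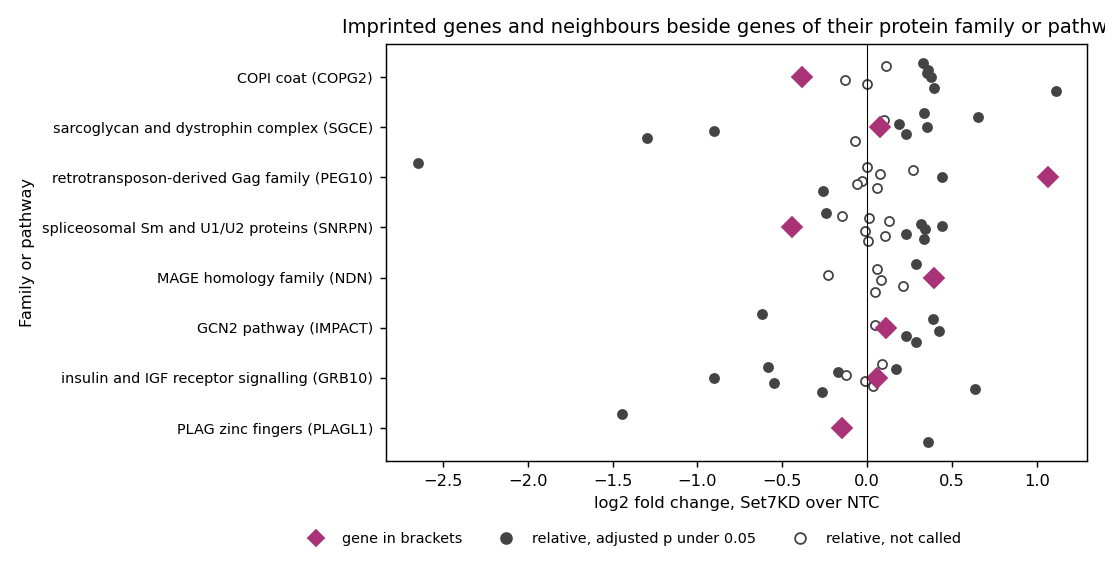
Log2 fold change of Set7KD over NTC for genes of each protein family or pathway (circles, filled where the edgeR adjusted p was under 0.05) and for the gene described here (diamond, named in brackets). COPG2 lies at -0.38, left of the COPI coat genes, of which 6 of 9 are filled and on the right, and PEG10 lies at 1.07, right of all other Gag-derived genes.

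The profile of each gene over the 6 libraries was compared with that of every gene of mean at least 5 CPM, as the root mean square distance of log2 CPM centred on its mean. For MEST the nearest were ROR1 at 0.057, JAG1 at 0.057, the pseudogene MESTP1 at 0.066, C1orf198 at 0.066 and ITGA11 at 0.080, and PEG10 was the 12th. For PEG10 they were DSTN at 0.032, ROR1 at 0.060, LYPD1 at 0.063, RSU1 at 0.068 and CPEB2 at 0.070, and MEST was the 22nd. These distances describe likeness over 6 libraries of 2 groups, where any gene of about the same fold and a small spread is near. COPG2 and SGCE, whose fold changes differ from those of MEST and PEG10, could not be near by this measure and are in neither list.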

How the data were processed

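Poly-A RNA of 6 HMEC-1 libraries was sequenced, and groups and replicate numbers were read from the sample titles. The authors deposited whole-number read counts per gene, not normalized; BWA, bedtools and hg19 are named in the submitters' processing notes without tool versions. Reads outside the annotation, 55.6 to 56.1% of each library, were kept out. The fit used edgeR 4.0.16 under R 4.3.3 (TMM scaling, filterByExpr, robust glmQLFit, then glmQLFTest), Benjamini-Hochberg over 18482 genes, called at an adjusted p under 0.05, after tests on simulated data. The standard error is the absolute log2 fold change over the square root of F. The design text speaks of biological triplicates; separate transductions are not described, and a p-value covers the spread of these libraries alone, which may be technical.

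The members, the lists and the naming rule were chosen with earlier results of these data known. The rule names every gene of the set, every neighbour of MEST and PEG10 with a row, SETD7, up to 4 genes of smallest p in every other list, and the 5 nearest profiles. Marker lists of epithelium and leukocytes had only 1 of 5 genes each with values, so each stands for a single gene. For epithelium this was KRT8, at 44.8 to 52.7 CPM in NTC and 40.2 to 48.3 CPM in Set7KD, not called. For leukocytes it was CD14, at 5.21 to 5.96 CPM in NTC and 3.37 to 4.30 CPM in Set7KD. CD14 was called lower (edgeR adjusted p = 0.0147). Both genes were named after their values were seen. GENCODE 29 gave exon lengths and overlaps, and RefSeq promoters; their build differs from that of the counts. Over 11151 genes, libraries sharing a number deviated together from their group means (correlations of 0.30, 0.42 and 0.34, each over 0.1). The numbers were treated as pairs only in the alternative with the replicate block. The main fit, which gave the calls, standard errors and adjusted p-values above, did not pair the libraries. No label explains the number, and this pairing rests on the data. Alternatives were other scalings (RLE, upper quartile), no filter, a filter of 50 counts, the replicate block, DESeq2 1.42.0, limma-voom (limma 3.58.1) and each library left out.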

Additional observations from a re-analysis of the deposited data

How the results depend on the processing

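Over the 13 alternatives the log2 fold changes of the 9 genes, a description of the values that helped to choose them, ran from 1.15 to 1.21 for MEST, 1.04 to 1.12 for PEG10, -0.46 to -0.33 for COPG2, -0.48 to -0.42 for SNRPN, 0.31 to 0.46 for NDN, 0.03 to 0.11 for SGCE, 0.04 to 0.18 for IMPACT and -0.17 to -0.13 for PLAGL1. GRB10 ran from -0.0054, without NTC replicate 2, to 0.14, so it has no settled direction. For the 2 pairs the alternatives took the difference of the log2 fold changes of both genes, not the within-library ratio of CPM plus 0.5. This difference ran from 1.49 to 1.67 for MEST and COPG2 and from 0.93 to 1.08 for PEG10 and SGCE. With the replicate number as a block, taken as pairing the libraries, MEST was at 1.17 and PEG10 at 1.07. Of all 18482 genes 7916 were then called in place of 6690. In the lists the block gave 14 of 29 other imprinted genes, 18 of 45 neighbours, 5 of 20 imprint factors and 41 of 64 family genes. Over all alternatives 4987 to 7916 genes were called, and 8 to 14 of the other imprinted genes, 12 to 18 of the neighbours and 32 to 41 of the family genes. For the 20 imprint factors, leaving out 1 library gave 3 to 6 calls against 5. Over all genes it gave 4987 to 6444 calls against 6690. The calls over all genes thus changed between settings as well, and nothing about a list is read from a change in its count. A further 53 genes were followed, all called in the main fit and, SETD7 apart, picked from their lists by the values of these same libraries. Of these 53, 44 kept their call in every alternative that tested them and none changed sign. Being picked in this way, they do not show how stable the calls of other genes are. GNGT1, GPR1, ARC, PLAG1 and CDKN1C were tested in 12 of the 13 alternatives. With 1 count worth up to 0.0618 CPM, genes such as CDKN1C and ARC rest on few reads.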
